A study of Rattus norvegicus with 8 samples.

Results

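The 7 genes that encode NMDA receptor subunits, Grin1, Grin2a, Grin2b, Grin2c, Grin2d, Grin3a and Grin3b, were taken by gene symbol from RNA-seq tables that list 17168 genes. All 7 were present in each of 8 libraries and all 7 passed the filter on low counts. The libraries came from medial prefrontal cortex homogenate of male Sprague-Dawley rats, 4 labelled high (HI) and 4 labelled low (LI) in motor impulsivity, and the labels give no drug, genotype or age. Impulsivity was scored as premature responding in the 1-choice serial reaction time (1-CSRT) task, and HI and LI rats came from the upper and lower quartiles of that score. Each library is called by its group and replicate number, HI1 to HI4 and LI1 to LI4. Whether every library comes from its own animal is not stated in the labels, so p-values measure only the spread between these libraries, which may be technical. The tissue is a homogenate of all cell types, in which fewer cells of a type and less RNA per cell cannot be told apart.

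NMDA receptors are glutamate-gated cation channels that open only when glutamate and a co-agonist, glycine or D-serine, are bound and when depolarisation has expelled magnesium from the pore. Calcium entering through them drives synaptic plasticity, and in prefrontal cortex they sustain recurrent firing of pyramidal neurons. Each receptor is a tetramer built on the obligatory GluN1 subunit (Grin1), which binds the co-agonist, together with GluN2 subunits (Grin2a to Grin2d), which bind glutamate and set the kinetics, or with GluN3 subunits (Grin3a, Grin3b), which bind glycine and lower calcium permeability. GluN2B predominates in the young forebrain and GluN2A joins it during maturation; GluN2C is best known from cerebellar granule cells and, in forebrain, from astrocytes, and GluN2D from interneurons.

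Grin1 was by far the most abundant subunit transcript, and Grin2a and Grin2b were the subunits whose HI and LI libraries did not overlap. Grin2a stood 1.64-fold and Grin2b 1.44-fold higher in HI, while Grin1 stood at the same level in both groups (0.993-fold). Grin2c, Grin2d, Grin3a and Grin3b overlapped between the groups. No subunit passed an adjusted p of 0.1, the alpha in the study's design text, in edgeR's quasi-likelihood test over 11631 genes.

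Levels of different genes were compared in TPM, a transcript abundance that divides by transcript length. Grin1 lay between 363 and 472 TPM over the 8 libraries and made up 68.5% to 80.9% of the summed TPM of the 7 subunits. Grin2a (26.7 to 58.0 TPM), Grin2b (29.1 to 53.6 TPM) and Grin2c (15.8 to 47.3 TPM) came next, and their ranges overlapped. Below them Grin3a (10.4 to 16.2 TPM), Grin2d (5.42 to 10.9 TPM) and Grin3b (1.18 to 3.22 TPM) took the fifth, the sixth and the seventh place in this order in each of the 8 libraries. The order of the second to the fourth place was not fixed. Grin2a held the second place in HI1, HI3 and HI4, Grin2b in HI2, LI1 and LI3, and Grin2c in LI2 and LI4, so Grin2a led the GluN2 subunits in 3 of 4 HI libraries and in 0 of 4 LI libraries.

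**Figure D1:**
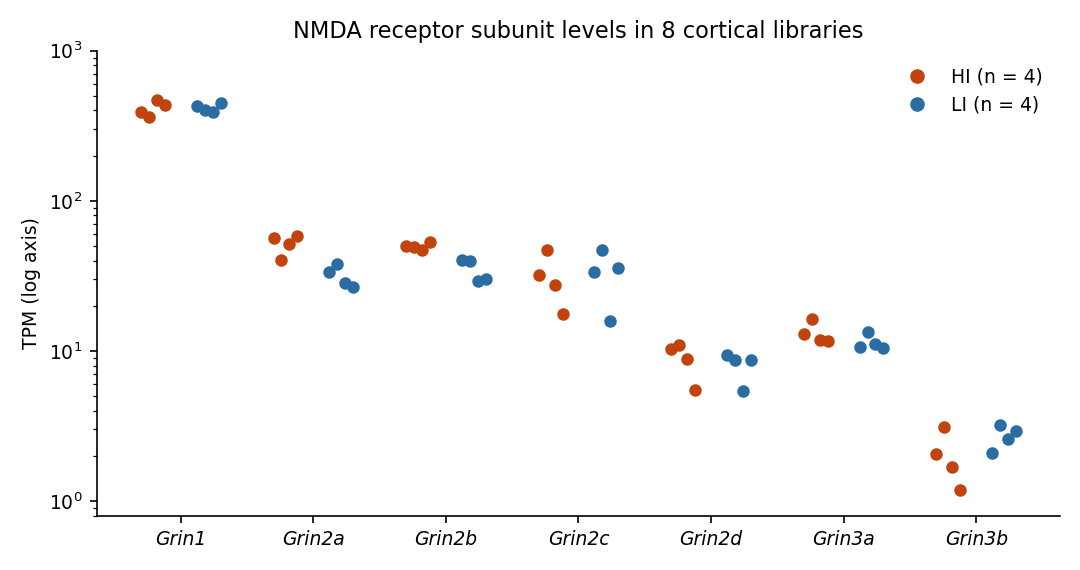
TPM of each NMDA receptor subunit gene (log axis) in the 4 HI libraries (orange) and the 4 LI libraries (blue), 1 point per library in order of replicate number. Grin1 lies far above the rest, HI and LI points separate in Grin2a and Grin2b, and Grin3b is lowest at 1.18 to 3.22 TPM.

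Grin1, the obligatory subunit, is shown first because the other subunits are set against it. It stood at 764.5, 775, 965 and 847 CPM in HI1 to HI4 and at 885, 790.4, 800 and 899.5 CPM in LI1 to LI4, where CPM is the read count relative to library size after TMM scaling. The groups overlapped throughout, with the highest value in HI3 and the lowest in HI1. The HI mean was 838 ± 92.3 CPM and the LI mean 844 ± 56.6 CPM (SD, n = 4 each), which gave a log2 fold change of -0.01 ± 0.11 (SE; adjusted p = 1.00, edgeR quasi-likelihood). The sign turned in 4 of the 8 fits that leave out 1 library (0.03 without HI1, 0.03 without HI2, 0.01 without LI1 and 0.02 without LI4), and the value was 0.03 with the ribosomal RNA share of each library as a covariate. The deposited table gives Grin1 8 transcripts and a listed length averaged over them by abundance. That length was 4143 bases in HI4 and 4192 in LI3, against 4207 to 4235 in the other 6 libraries. The transcript mix assigned to Grin1 was thus shifted to shorter forms in HI4, while LI3 lay close to HI1 (4207).

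The promoter table from RefSeq (GRCr8), with 250 bases before to 50 after each start, held 4 of the 7 genes, namely Grin1, Grin2c, Grin2d and Grin3a. Entries are missing for Grin2a, Grin2b and Grin3b. The Grin1 window, chr3:28528705-28529004 on the minus strand, is shown because it was the only one of the 4 with any match to the motifs searched on both strands. Its capitals mark those matches. The Grin2c window (chr10:101005089-101005388, minus strand) and the Grin2d window (chr1:105481187-105481486, minus strand) had none. They are shown because both genes had their lowest levels in HI4 and LI3.
Grin1: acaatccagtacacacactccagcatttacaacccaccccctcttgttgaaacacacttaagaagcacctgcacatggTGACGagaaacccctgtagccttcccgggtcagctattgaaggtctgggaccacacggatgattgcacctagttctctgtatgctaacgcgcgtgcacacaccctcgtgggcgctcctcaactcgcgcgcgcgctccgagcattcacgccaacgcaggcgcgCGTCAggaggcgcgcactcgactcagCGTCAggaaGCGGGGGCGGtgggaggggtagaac
Grin2c: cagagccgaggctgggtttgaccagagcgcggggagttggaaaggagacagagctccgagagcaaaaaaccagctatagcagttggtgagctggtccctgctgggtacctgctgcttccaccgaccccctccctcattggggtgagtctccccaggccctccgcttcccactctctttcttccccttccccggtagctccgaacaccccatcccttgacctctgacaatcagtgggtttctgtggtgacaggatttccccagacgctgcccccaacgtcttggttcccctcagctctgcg
Grin2d: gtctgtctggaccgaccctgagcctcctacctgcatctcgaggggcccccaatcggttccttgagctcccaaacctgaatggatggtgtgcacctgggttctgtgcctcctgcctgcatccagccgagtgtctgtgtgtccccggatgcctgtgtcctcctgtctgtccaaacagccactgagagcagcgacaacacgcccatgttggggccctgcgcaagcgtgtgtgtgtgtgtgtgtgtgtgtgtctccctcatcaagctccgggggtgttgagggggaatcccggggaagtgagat

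In Grin1 an EGR site (GCGNGGGCG) began at position 26 after the start, counted with the start as 1, and a GC box (GGGCGG) that overlaps it began at position 30. Short CRE cores (TGACG) began at -172 on the gene's strand and at -10 and 17 on the opposite strand. Among 33469 promoter windows of the same length, 4.98% held the EGR site, 33.1% the GC box and 21.2% the CRE core. The full CRE (TGACGTCA, 1.83% of windows), the AP-1 site (TGANTCA, 7.33%) and the TATA box (TATAAA, 14.2%) matched in none of the 4 subunit windows. GC content of these windows was 58.7% to 60.7%, against a median of 51.7% over all windows.

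Grin2a, which encodes the glutamate-binding GluN2A subunit of fast-deactivating receptors, stood at 126, 97.0, 118 and 129 CPM in HI1 to HI4 and at 78.7, 82.8, 65.6 and 60.2 CPM in LI1 to LI4. Every HI value exceeded every LI value, and the narrowest gap was between HI2 and LI2. The HI mean was 117 ± 14.3 CPM and the LI mean 71.8 ± 10.7 CPM (SD, n = 4 each), which gave a log2 fold change of 0.71 ± 0.14 (SE). The unadjusted p was 4.93e-04 and the adjusted p 1.00 (edgeR quasi-likelihood).

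Grin2b, which encodes the slower GluN2B subunit that binds CaMKII, stood at 125, 131, 120.4 and 133 CPM in HI1 to HI4 and at 106, 98.2, 75.2 and 75.4 CPM in LI1 to LI4. The HI libraries lay close together and again all above the LI libraries, and LI3 and LI4 were the lowest. The HI mean was 127 ± 5.82 CPM and the LI mean 88.6 ± 15.7 CPM (SD, n = 4 each), which gave a log2 fold change of 0.52 ± 0.13 (SE). The unadjusted p was 0.00295 and the adjusted p 1.00 (edgeR quasi-likelihood).

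**Figure D2:**
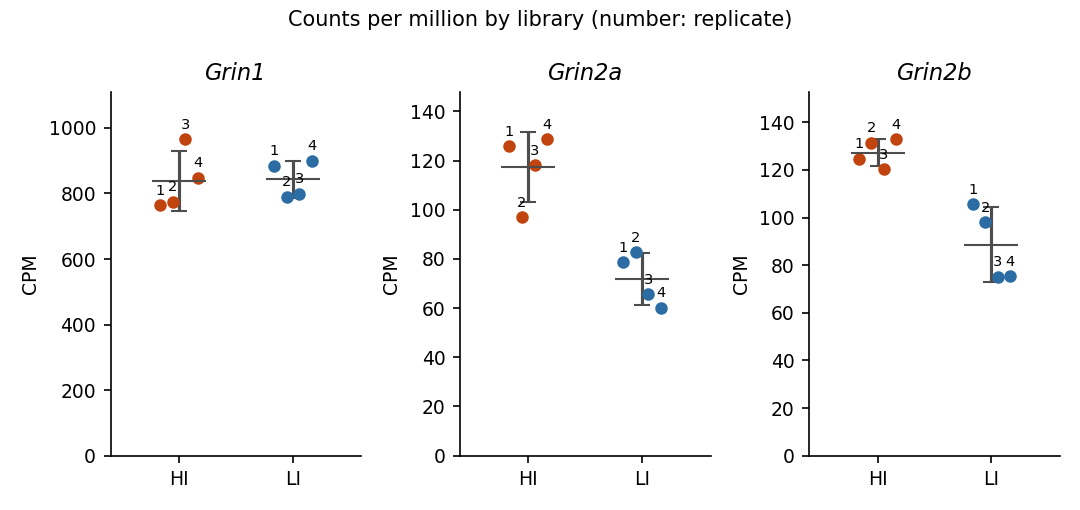
CPM of Grin1, Grin2a and Grin2b by library; small numbers are replicate numbers, horizontal bars the group mean and whiskers the SD (n = 4 each), with each vertical axis starting at 0. Grin1 overlaps between groups, while every HI point lies above every LI point in Grin2a and Grin2b.

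Of the 7 subunits, 2 had all HI libraries above all LI libraries in CPM, against 2.31% of the 11631 tested genes, and 0 had all HI below all LI, against 1.14%. The same 2 had an unadjusted p under 0.05 and a higher value in HI, against 3.07% of all tested genes, and 0 were lower at that p, against 1.09%. The members were chosen with these results known, so the counts describe the family and do not test it. The median log2 fold change was 0.15 over the 7 subunits and -0.01 over all tested genes. An adjusted p under 0.1 was reached by 0 of the 7, as by 0.0% of all genes, in edgeR's quasi-likelihood test. At an unadjusted p under 0.05 that test gave 357 genes higher and 127 lower in HI. DESeq2 called 38 genes, 36 of them higher (0.31% of the genes tested), with Grin2a at an adjusted p of 0.00580 and Grin2b at 0.0968, while limma-voom called 0 and Fisher's exact test on summed counts 6594 (1478 higher and 5116 lower in HI).

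Ribosomal RNA, the Rn45s and Rn28s transcripts, took 0.406% of the counts in HI4 and 0.418% in LI3, 1.37% to 6.42% in 5 libraries and 25.5% in HI2. HI4 and LI3 also stood apart on the first principal component of log2 CPM. Without these 2 libraries the log2 fold change was 0.62 ± 0.15 for Grin2a and 0.43 ± 0.13 for Grin2b (SE). Leaving out HI2 alone gave 0.79 for Grin2a and 0.51 for Grin2b. With each library's ribosomal RNA share as covariate the values were 0.76 ± 0.14 and 0.49 ± 0.14, and HI2 weighs most in that fit. With the log2 of that share as the covariate, a setting added once the data had been seen, Grin2a (0.71 ± 0.12, adjusted p = 0.0485) and Grin2b (0.50 ± 0.11, adjusted p = 0.0718) passed the threshold in edgeR's quasi-likelihood test, among 322 genes called higher in HI (2.77% of those tested) and 118 called lower. At an unadjusted p under 0.05 that fit gave 1212 genes higher and 1097 lower. Neither call held without HI4 (Grin2a 0.60 and Grin2b 0.31, adjusted p = 0.518 and 0.522, edgeR) or without LI3 (0.67 and 0.45, adjusted p = 0.170 and 0.185).

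Within a library, ratios between subunits need no scaling between libraries. The log2 TPM ratio of Grin2a to Grin1 was -2.77, -3.16, -3.19 and -2.91 in HI1 to HI4, against -3.65, -3.42, -3.78 and -4.06 in LI1 to LI4. All HI ratios lay above all LI ratios, by 0.72 ± 0.17 on average (SE, n = 4 each). The two-sided exact permutation test gave p = 0.0286, which is the lowest this design can reach, and an adjusted p of 0.100 over 7 ratios. The ratio of Grin2b to Grin1 was -2.95, -2.89, -3.32 and -3.03 in HI1 to HI4, against -3.39, -3.34, -3.75 and -3.90 in LI1 to LI4. These too did not overlap, though HI3 and LI2 were only just apart, and differed by 0.55 ± 0.17 (two-sided exact permutation p = 0.0286, adjusted p = 0.100). Neither adjusted value was under 0.1, which was out of reach with only these ratios at the lowest p. Not passing that threshold therefore says nothing about the size of the differences. The separation of Grin2a and Grin2b was known before these ratios were chosen.

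The Grin2a to Grin2b ratio, a common index of the GluN2 make-up of receptors, lay near 1 in every library. In linear TPM it was 1.13, 0.825, 1.097 and 1.08 in HI1 to HI4, against 0.833, 0.943, 0.976 and 0.893 in LI1 to LI4. Grin2a exceeded Grin2b in 3 of 4 HI libraries and in 0 of 4 LI libraries, and HI2 lay below every LI library. On the log2 scale the groups stood at 0.04 ± 0.21 and -0.14 ± 0.10 (SD, n = 4 each), a difference of 0.17 ± 0.12 (SE; two-sided exact permutation p = 0.2, adjusted p = 0.467), which was within the spread between libraries. Without HI2, which had the most ribosomal RNA and 587 Grin2a counts, the difference was 0.28 and HI and LI did not overlap. That separation follows from leaving out the only HI library that lay below any LI library. The exact permutation p was then 0.0286 (adjusted p = 0.100), the smallest that 4 against 3 libraries allow. This p was fixed by the choice of library and is no separate test. The part of ribosomal RNA in the HI2 ratio was not tested.

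**Figure D3:**
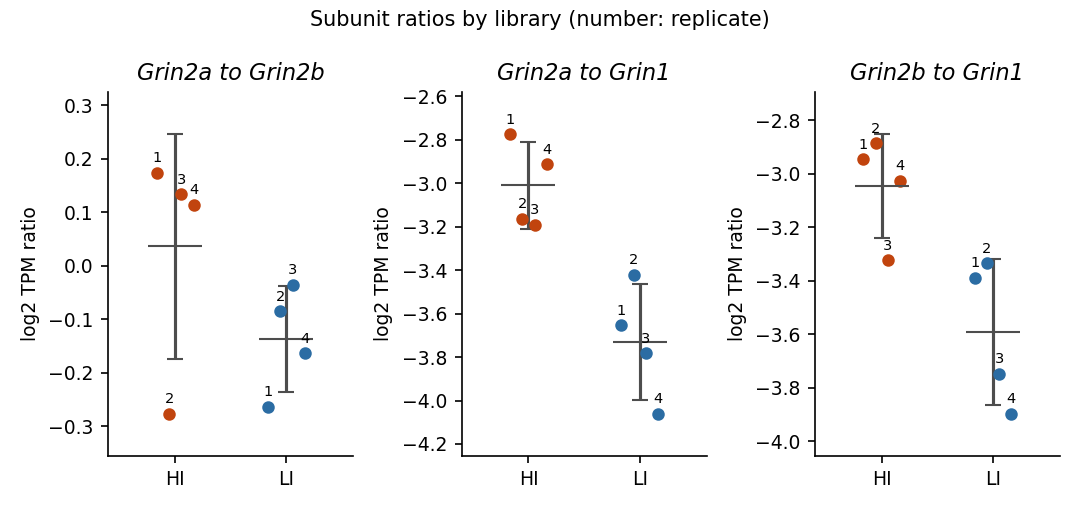
Log2 TPM ratios of Grin2a to Grin2b, Grin2a to Grin1 and Grin2b to Grin1 by library; small numbers are replicate numbers, horizontal bars the group mean and whiskers the SD (n = 4 each), on axes that do not start at 0. HI2 sits below the other HI libraries in the first panel at -0.28, and the groups do not overlap in the other panels.

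The summed TPM of the 4 GluN2 genes was 149.8, 148, 135 and 135 in HI1 to HI4, against 118, 133, 78.8 and 101 in LI1 to LI4. LI2 (133.3 TPM) lay just under the lowest HI library, HI4 (134.7 TPM). TPM carries no TMM scaling between libraries, so this narrow gap may not hold under another scaling. Grin1 exceeded that sum 2.59-, 2.46-, 3.50- and 3.24-fold in HI1 to HI4, against 3.62-, 3.03-, 4.96- and 4.41-fold in LI1 to LI4, and these ratios overlapped between the groups. Grin2a made up 9.04% ± 1.26 of the TPM of all 7 subunits in the HI libraries and 5.89% ± 0.845 in the LI libraries (SD, n = 4 each), and Grin2b 8.78% ± 0.795 and 6.47% ± 0.957. As shares of the GluN2 sum, Grin2a took 36.7% ± 6.59 in HI and 29.9% ± 4.23 in LI, Grin2b 35.4% ± 3.003 and 32.8% ± 3.57, Grin2c 21.7% ± 7.77 and 29.8% ± 7.19, and Grin2d 6.22% ± 1.47 and 7.48% ± 0.954. All 4 of these shares overlapped between HI and LI, and no test was made of them.

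Grin2c and Grin2d varied more within groups than the subunits above, and in the same libraries. Grin2c stood at 66.2, 105, 58.1 and 36.5 CPM in HI1 to HI4 and at 72.9, 95.4, 33.9 and 74.8 CPM in LI1 to LI4. Grin2d stood at 25.1, 28.8, 22.2 and 13.4 CPM in HI1 to HI4 and at 24.05, 20.9, 13.8 and 21.5 CPM in LI1 to LI4. Both genes were lowest in HI4 and LI3, 1 library of each group, and highest in HI2. In the other 6 libraries Grin2c ranged from 58.1 to 105 CPM and Grin2d from 20.9 to 28.8 CPM, above both values of HI4 and LI3.

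HI4 and LI3, where Grin2c and Grin2d were lowest, had the least ribosomal RNA, and HI2, where both were highest, had the most. The other libraries did not follow that order. LI4, with 1.37% ribosomal RNA, had 74.8 CPM of Grin2c, against 66.2 in HI1 (6.12%) and 58.1 in HI3 (3.96%). For Grin2d LI4 had 21.5 CPM, against 20.9 in LI2 (6.42%). The part of ribosomal RNA in the Grin2c and Grin2d levels was not tested beyond the fits given here. The log2 fold change was -0.06 ± 0.35 for Grin2c and 0.15 ± 0.24 for Grin2d (SE; unadjusted p = 0.861 and 0.543, both adjusted p = 1.00, edgeR quasi-likelihood). Leaving out HI4 and LI3 gave -0.09 ± 0.21 and 0.19 ± 0.14, with smaller errors. The sign of Grin2c turned without HI4 (0.14) or LI2 (0.13), and its value was -0.37 without HI2 and -0.29 without LI3. Grin2d was 0.01 without LI3, 0.02 without HI2 and 0.33 without HI4. With ribosomal RNA share as covariate, a fit in which HI2 weighs most, Grin2d turned to -0.04 and Grin2c went to -0.43. Against Grin1, the log2 TPM ratio differed by -0.06 ± 0.48 for Grin2c and by 0.14 ± 0.32 for Grin2d (SE; exact permutation p = 1.00 and 0.657).

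The spread within a group, as an SD of log2 CPM, was 0.63 for Grin2c and 0.41 for Grin2d. It was 0.13 for Grin1, 0.20 for Grin2a, 0.19 for Grin2b, 0.21 for Grin3a and 0.44 for Grin3b. Counting error alone would give 0.07 for Grin2c, 0.11 for Grin2d, 0.02 for Grin1 and 0.05 for Grin2a and Grin2b. For these 5 genes that was the smaller part of the spread seen, which includes the low HI4 and LI3 values of Grin2c and Grin2d. For Grin3a counting error would give 0.12 and for Grin3b 0.28, a larger part of the spread seen.

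**Figure D4:**
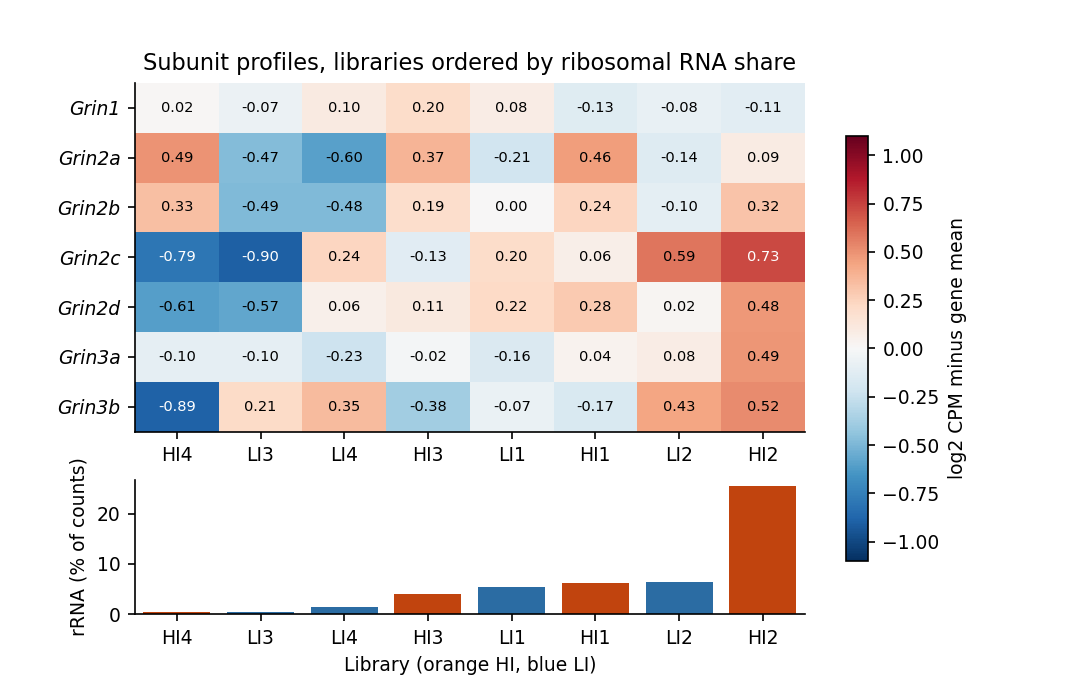
Upper panel: log2 CPM of each subunit minus its mean over the 8 libraries (colour and printed value), with libraries ordered by ribosomal RNA share; lower panel: that share as a percent of counts (orange HI, blue LI). Grin2c and Grin2d are lowest in HI4 and LI3, the libraries with 0.406% and 0.418% ribosomal RNA, while Grin2a and Grin2b are positive in all HI libraries.

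Of the GluN3 genes, Grin3a ranked just above Grin2d in TPM and Grin3b below it. Grin3a, the GluN3 subunit of developing and some adult cortical neurons, stood at 18.8, 25.8, 18.1 and 17.04 CPM in HI1 to HI4 and at 16.3, 19.4, 17.1 and 15.6 CPM in LI1 to LI4. HI2 was the highest library and the groups overlapped, with a log2 fold change of 0.22 ± 0.16 (SE; unadjusted p = 0.214, adjusted p = 1.00, edgeR quasi-likelihood), or 0.07 without HI2.

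Grin3b, best known from motor neurons of brainstem and spinal cord, had 29, 30, 24 and 13 counts in HI1 to HI4, against 31, 37, 31 and 42 in LI1 to LI4. The exact Poisson 95% interval covers counting error only and is not scaled to library size. It was 6.92 to 22.2 counts for HI4 and 30.3 to 56.8 for LI4, the libraries with the lowest and the highest count. For HI1 and LI1 it was 19.4 to 41.6 and 21.1 to 44.0, which overlapped. In CPM the groups stood at 3.06 ± 1.37 and 4.06 ± 0.630 (SD, n = 4 each) and overlapped, with HI2 the highest of all libraries at 4.96. The log2 fold change was -0.43 ± 0.32 (SE; unadjusted p = 0.208, adjusted p = 1.00, edgeR quasi-likelihood), and it was -0.73 without HI2 and -0.24 without HI4. With each library's ribosomal RNA share as covariate Grin3b was at -0.75 ± 0.27 (SE; unadjusted p = 0.0218, adjusted p = 0.677, edgeR quasi-likelihood) and Grin3a at 0.07 ± 0.13. HI2 weighs most in that fit, and leaving out HI2 alone gave -0.73 for Grin3b and 0.07 for Grin3a.

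**Figure D5:**
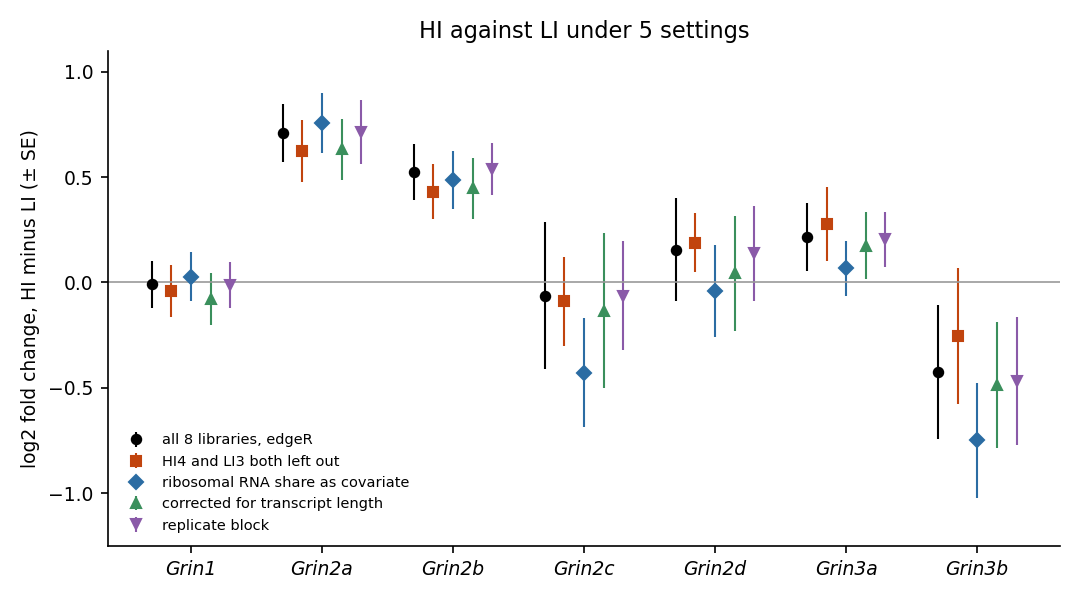
Log2 fold change, HI minus LI, of each subunit with its SE as whiskers, for all 8 libraries in edgeR, without HI4 and LI3, with ribosomal RNA share as covariate, with log2 CPM corrected for transcript length (limma) and with the replicate number as a block. Grin2a stays between 0.62 and 0.76 and Grin2b between 0.43 and 0.54, while Grin1 and Grin2d lie on both sides of 0.

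Among the subunits, the profiles over the 8 libraries that were most alike were those of Grin2a and Grin2b, with a root mean square difference of 0.17 in centred log2 CPM. Those of Grin2b and Grin3a (0.27), Grin1 and Grin3a (0.29) and Grin2c and Grin2d (0.29) followed, and the least alike were Grin2a and Grin3b (0.77). Over the 6 libraries without HI4 and LI3 the difference was 0.18 for Grin2a and Grin2b and 0.28 for Grin2c and Grin2d, while that of Grin2c and Grin3b was 0.13. Of all other tested genes, the closest to Grin2a were Tmem56 (0.09), the Shaker potassium channel gene Kcna2 (0.10) and the receptor tyrosine phosphatase gene Ptprt (0.12). The closest to Grin2b were the sodium channel gene Scn8a (0.10), the netrin receptor gene Unc5d (0.11) and Ptprt (0.12). For Grin1 they were the formin-like gene Fmnl1 (0.04), the chromatin remodelling subunit gene Smarcd1 (0.04) and the zinc finger gene Zbtb7a (0.05). The median difference over all genes was 0.48 from Grin2a, 0.41 from Grin2b and 0.28 from Grin1.

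Genes that act around the receptor went in both directions. Of 11 tested genes for scaffold and transport partners, 2 had an unadjusted p under 0.05 with higher values in HI and 0 with lower values, against 3.07% and 1.09% of all genes, and the median log2 fold change was 0.10. Apba1, an adaptor in the transport of GluN2B vesicles, stood at 242, 247, 273 and 242 CPM in HI1 to HI4 and at 209, 212, 196 and 210.5 CPM in LI1 to LI4, with no overlap and a log2 fold change of 0.28 ± 0.09 (SE). Dlg2, the scaffold PSD-93, differed by 0.43 ± 0.17, but by 0.23 without HI4, and its groups overlapped. Dlg4, the scaffold PSD-95 that anchors GluN2 tails, differed by -0.13 ± 0.15 and Dlg1, SAP97, by 0.17 ± 0.15.

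Of 18 genes for kinases, phosphatases and other signalling partners, 1 had an unadjusted p under 0.05 with a higher value in HI and 0 with a lower one, against 3.07% and 1.09% of all genes, and the median was 0.04. That gene was Rasgrf2, a calcium-dependent activator of Ras, at 0.45 ± 0.18 (SE), with overlapping groups. Ptpn5, the phosphatase STEP that acts on GluN2B, differed by -0.27 ± 0.14, or -0.14 without LI2. Camk2a, the kinase subunit that docks on GluN2B, differed by 0.15 ± 0.12 and Camk2b by -0.08 ± 0.10.

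Of 10 tested genes for co-agonist supply and removal, 0 were higher and 1 lower in HI at an unadjusted p under 0.05, against 3.07% and 1.09% of all genes, and the median was -0.12. Gcsh, a subunit of the glycine cleavage system, stood at 31.7, 29.3, 33.3 and 36.5 CPM in HI1 to HI4 and at 41.7, 37.0, 37.1 and 43.0 CPM in LI1 to LI4, with all HI below all LI and a log2 fold change of -0.28 ± 0.12 (SE). Slc7a10, a transporter of glycine and D-serine, differed by -0.28 ± 0.20, with -0.16 without HI4 and -0.43 without HI2. Srr, which makes D-serine, differed by 0.08 ± 0.16.

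Of 11 genes for glutamate supply and clearance, 2 were higher in HI at an unadjusted p under 0.05 and 0 lower, against 3.07% and 1.09% of all genes, and the median was 0.00. Slc1a2, the main astrocytic glutamate transporter, stood at 332, 349.8, 291 and 398 CPM in HI1 to HI4 and at 176, 261, 215 and 292 CPM in LI1 to LI4. LI4 lay just above HI3, so the groups overlapped, and the log2 fold change was 0.54 ± 0.17 (SE; unadjusted p = 0.00913, edgeR quasi-likelihood). Slc38a1, a glutamine transporter, differed by 0.33 ± 0.13 with all HI above all LI by a narrow margin between HI2 and LI2. Over all 4 of these lists 0 genes passed an adjusted p of 0.1 (edgeR quasi-likelihood).

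Cell type markers were read beside these values, as summed CPM. The 6 excitatory neuron markers, among them Slc17a7 and Neurod6, were present in all libraries (1533 to 2208 CPM in HI, 1566 to 1933 in LI) and overlapped between groups, with the lowest sums in HI4 and LI3. Astrocyte markers lay at 1845 to 2191 CPM in HI and 2024 to 2342 in LI, and their members went both ways in HI4 and LI3, where Grin2c and Grin2d were lowest. Aqp4 (707 and 638 CPM) and Gja1 (728 and 711 CPM) were highest in HI4 and LI3, while Gfap (185 and 283 CPM) and Aldh1l1 (13.3 and 14.0 CPM) were lowest there. GABA interneuron markers lay at 594 to 686 CPM in HI and 673 to 885 in LI, and went both ways too. Slc32a1 was lowest in HI4 and LI3 (49.2 and 73.0 CPM) and Sst highest (219 and 240.3 CPM). The part of either cell type in the Grin2c and Grin2d levels was not tested. Microglia markers lay at 182 to 200.2 CPM in HI and 214 to 230.5 in LI, with no overlap.

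LI2 carried the most oligodendrocyte marker RNA (6348 CPM, against 1665 to 3393 in the other libraries) and the most striatal neuron marker RNA (809 CPM, against 319 to 359). Of the 6 oligodendrocyte and the 6 striatal neuron markers, 0 had a higher value in HI by log2 fold change. Among all 11631 tested genes 5641 had a higher value in HI. These fits include LI2. The striatal sums of LI1, LI3 and LI4 were 337, 352 and 344 CPM, within the range of HI. The oligodendrocyte sum of LI1, 1665 CPM, lay below the 1943 to 2121 CPM of HI, while LI3 and LI4 stood at 3393 and 2538 CPM. Without LI2 the log2 fold change was 0.79 for Grin2a and 0.58 for Grin2b. The sum of pan-neuronal markers was highest in HI4 (9975 CPM) and LI3 (8310 CPM), against 3708 to 5857 in the other 6, and most of it was Snap25 (7193 and 5847 CPM). Tubb3 was lowest in the same 2 libraries (460.4 and 539.9 CPM), so these markers did not move together. Endothelial markers lay at 80.4 to 134 CPM in HI and 82.8 to 111 in LI, oligodendrocyte precursor markers at 159 to 217 and 154 to 190.3, meningeal markers at 55.0 to 633 and 23.8 to 157, and the 4 cerebellar granule cell markers at 11.2 to 19.96 and 11.2 to 21.2, most of the last from Neurod1. No marker gene was at 0 in all 8 libraries. The part of cell make-up in the Grin2a and Grin2b values was not tested.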

How the data were processed

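The deposited tables, 1 per library, list transcript lengths beside expected count, TPM and FPKM for each gene symbol, per the file headers. Expected counts are estimated reads; 10.8% to 11.4% of those the authors deposited in a library were not whole. The submitters' processing notes name Bowtie2 2.1.0. Not given in the sources used here are the quantification program, genome build, annotation and use of strand. The deposited TPM values, scaled by the authors to a fixed total, served for levels between genes and for ratios, and the deposited FPKM values for 1 alternative. All 7 subunit symbols matched RefSeq (GRCr8). Kif17, on the list of transport partners, was not analysed here.

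Counts were rounded (7354425 to 9476667 per library), TMM-scaled, filtered with filterByExpr (minimum count 10, minimum total 15) and tested with edgeR 4.0.16 quasi-likelihood in R 4.3.3, with Benjamini-Hochberg adjustment over 11631 genes and a threshold of 0.1. The standard error is the absolute log2 fold change over the square root of F. The study's own Fisher's exact test ignores the spread between libraries and was an alternative, as were DESeq2 1.42.0, limma 3.58.1, other scalings and filters, a length correction, covariates and left-out libraries. Scripts were tested on simulated data. Log2 CPM used a prior count of 2. Ratios were tested by exact permutation of 70 assignments.

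Members, lists and tests were chosen with earlier results of these data known. Named genes are the 7 subunits, list genes with an unadjusted p under 0.05 (at most 6 and at least 2 per list, by smallest p), and for the 3 subunits of highest mean TPM the 3 genes of most similar profile. Dlg4, Dlg1, Camk2a, Camk2b and Srr were named after their values were seen. Libraries of a group all differed by more than sampling noise.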

Additional observations from a re-analysis of the deposited data

Results flagged for a closer look

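The Grin2a to Grin2b log2 TPM ratio of HI2, at -0.28, lay far from the other 3 HI libraries (0.17, 0.13 and 0.11). Its gap to the nearest of them was 0.867 of the whole range of the group, above Dixon's critical value at the 95% level for 4 samples. It was the only one of 28 groups of values screened to do so, and about 1 group in 20 does so by chance.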

How the results depend on the processing

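The log2 fold changes of Grin2a, Grin2b, Grin3a and Grin3b kept their sign under all 25 alternatives run. In that order they were 0.60 to 0.79, 0.31 to 0.61, 0.07 to 0.28 and -0.75 to -0.24. DESeq2 gave Grin3b -0.43 and no adjusted p. The number of genes called was 0 in the main edgeR fit, 38 with DESeq2 and 6594 with Fisher's exact test on summed counts. It was 440 in edgeR with the log2 ribosomal RNA share as covariate (0 without HI4 or LI3). The cause of these differences was not tested. Leaving out 1 library gave 0.63 to 0.79 for Grin2a, 0.45 to 0.61 for Grin2b, -0.0848 to 0.0315 for Grin1, -0.37 to 0.14 for Grin2c and 0.01 to 0.33 for Grin2d. Grin1 turned to 0.0275 with the ribosomal RNA share as covariate (0.0537 and 0.0020 without HI4 and LI3) and to 0.0010 with its log2 (0.0247 without HI4). Grin2d turned to -0.0409 with the share (-0.1384 without LI3) and to -0.0330 with its log2 (-0.0579 without LI3). For ratios to Grin1, leaving out 1 library gave 0.61 to 0.82 for Grin2a, 0.44 to 0.64 for Grin2b, -0.35 to 0.21 for Grin2c, -0.0371 to 0.38 for Grin2d, 0.04 to 0.32 for Grin3a and -0.80 to -0.24 for Grin3b, and 0.13 to 0.28 for Grin2a to Grin2b.

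Replicate numbers are shared between HI and LI but the labels do not say that they pair animals. Deviations of same-numbered libraries correlated at 0.22, 0.54, -0.05 and 0.06 across genes, and HI4 correlated best with LI3 (0.78). With the replicate block Grin2a differed by 0.71 and Grin2b by 0.54 and 0 genes were called (edgeR quasi-likelihood, 424 higher and 154 lower at an unadjusted p under 0.05). The paired ratio differences were 0.72, 0.55 and 0.17 for Grin2a to Grin1, Grin2b to Grin1 and Grin2a to Grin2b (exact sign-flip permutation p = 0.125, 0.125 and 0.375, where 0.125 is the smallest 4 pairs allow). Counting error was largest for Grin3b, with 13 to 42 counts per library.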
